A study of Mus musculus with 4 samples.

Results

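The genes described here belong to the integrated stress response and the unfolded protein response, and were followed in cultured mouse erythroblasts. They are 10 named genes: Atf4, Atf5, Atf3, Ddit3, Xbp1, Trib3, Ppp1r15a, Chac1, Asns and Hspa5. The choice was by name, with earlier results of these data known. Shares set beside those of all genes below are therefore description only. All 10 had a row among the 23234 genes of the authors' deposited table. RNA sequencing was described for erythroblasts with extensive self-renewal, which are immature precursors of red cells, of fetal origin and expanded in culture. The proliferating control carried a non-targeting short hairpin RNA (shRNA), and the proliferating knockdown carried an shRNA against Setd8, a histone H4 lysine 20 methyltransferase. The maturing control carried the non-targeting shRNA and was moved to maturation medium 6 h before its RNA was collected. Every group thus carried an shRNA, each group had 1 sample, and the labels used here give neither strain nor age, nor how many hairpins or cultures stood behind a sample. Maturing knockdown cells, the fourth group, were not analysed here. With 1 library per group no difference had a replicate check.

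Cells under stress phosphorylate the translation factor eIF2alpha through a set of kinases. This lowers protein synthesis in general but favours translation of Atf4 mRNA, and Atf4 then turns on genes of amino acid supply and of feedback. In red cell precursors the kinase Eif2ak1 (HRI) senses haem and ties globin synthesis to haem supply. The unfolded protein response starts in the endoplasmic reticulum (ER), where the sensor Eif2ak3 (PERK) feeds into the same pathway, Ern1 (IRE1) splices Xbp1 mRNA, and Atf6 is cut loose to act as a transcription factor. The values below are mRNA levels: neither translation of Atf4 nor splicing of Xbp1 can be read from them.

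Setd8 itself was at 25.1, 9.28 and 25.9 FPKM in the proliferating control, the knockdown and the maturing control. FPKM counts fragments relative to transcript length and library size, so it can be compared between genes. The knockdown library had 1.44 times and the maturing control library 1.54 times the depth of the proliferating control, as judged from the values of very low genes. All 7 erythroid markers checked reached 1 FPKM in every library, while no lymphocyte marker did. Of 6 granulocyte and monocyte markers only Cd68 reached it, at 1.22 FPKM in the maturing control. Summed over 8 mast cell and basophil markers the level was 70.8, 500.0 and 37.7 FPKM in the same order of libraries, and 4 megakaryocyte markers summed to 14.6, 23.6 and 8.73 FPKM. The 7 erythroid entries summed to 1817, 672 and 2950 FPKM, mostly through the alpha-globin and beta-globin entries, while Gata1 was at 52.8, 61.1 and 65.5 FPKM. None of the 8 mast cell markers was at 0 in any library, and the megakaryocyte marker Pf4 was at 0 in the proliferating control only. The knockdown library therefore differed from the control in cell type markers as well, and the part of this in the results below was not tested. In bulk RNA, fewer cells of a type and less RNA per cell cannot be told apart.

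The stress genes spanned a wide range of levels. In the proliferating control, Asns stood highest at 101 FPKM, above 97.5% of the 9611 genes that reached 1 FPKM in a library. Hspa5 (68.0 FPKM) and Atf4 (64.6 FPKM) followed. Ddit3 (16.4 FPKM), Ppp1r15a (15.7 FPKM), Xbp1 (10.3 FPKM) and Atf5 (6.71 FPKM) lay in the middle, and Trib3 (2.53 FPKM) and Chac1 (2.07 FPKM) were low. Without replicates it cannot be said which neighbours in this order differ. Atf3 was nearly silent, at 0.119 FPKM, and was the 1 gene of the 10 that did not reach 1 FPKM in any library. Trib3 and Chac1 reached 1 FPKM only in the proliferating control, so for this pair passing that limit already required a difference between libraries.

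Of the 10 genes, 8 had their highest value in the proliferating control, against 28.4% of all genes at 1 FPKM or more in a library. The 8 include Atf3, which stayed below 1 FPKM, and Trib3 and Chac1, which reached it only in that library. The medians and counts of lower values below also cover all 10 genes, beside a background filtered at 1 FPKM. Both exceptions, Xbp1 and Ppp1r15a, were highest in the knockdown (33.2% of those genes), and no gene of the set was highest in the maturing control (38.4%). The knockdown and maturation comparisons share the proliferating control library, so a high value there lowers the ratio in both.

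**Figure D1:**
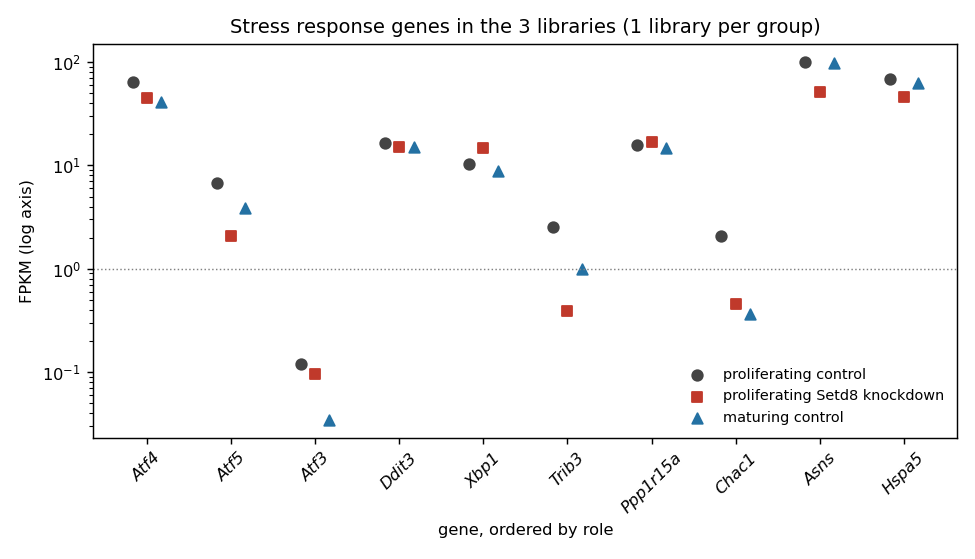
FPKM (log axis) of the 10 stress response genes in the proliferating control (circles), the proliferating Setd8 knockdown (squares) and the maturing control (triangles), 1 library each, with a dotted line at 1 FPKM. Trib3 and Chac1 lie above the line only in the proliferating control, while Ddit3 and Ppp1r15a sit at nearly the same level in all 3 libraries.

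Proliferating cells with and without the Setd8 hairpin were compared first. Their libraries also differed in cell type markers, so an effect of the Setd8 level cannot be told apart from that difference. The 2 genes that fell were Trib3 and Chac1, both downstream of Atf4. Asns, Hspa5 and Atf4 had lower values that were not called. Xbp1 and Ppp1r15a had higher values that were not called. A gene is said to be called, or to have risen or fallen, where the authors' deposited table marks it, at an adjusted p (q) of at most 0.05. Of the 10 genes 2 were called lower and 0 higher, against 3.24% of 11665 tested genes called lower and 5.81% called higher. At an unadjusted p below 0.05 there were 3 of the 10, beside 14.7% of tested genes. Their median log2 ratio of FPKM + 1 (knockdown over control) was -0.53, beside -0.05 over all 9611 genes at 1 FPKM or more. A lower value was held by 8 of the 10, beside 55.6% of those genes. On that scale 3 of the 10 (Atf5, Trib3 and Chac1) passed 2-fold, beside 6.98%.

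Control cells before and after 6 h in maturation medium were compared next. Chac1 was the 1 gene that fell, and none rose. All 10 genes had a lower value in the maturing control than in the proliferating control, beside 47.3% of genes at 1 FPKM or more, but for 5 of them (Xbp1, Hspa5, Ddit3, Ppp1r15a and Asns) the value was 85.5% to 96.6% of the control value. The median log2 ratio of FPKM + 1 (maturing over proliferating) was -0.16, beside 0.01 over all 9611 genes. Chac1 alone passed 2-fold on that scale, beside 1.66%. The background of calls was 1.17% lower and 0.584% higher among 11298 tested genes. At an unadjusted p below 0.05 there were 3 of the 10, beside 4.9% of tested genes.

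**Figure D2:**
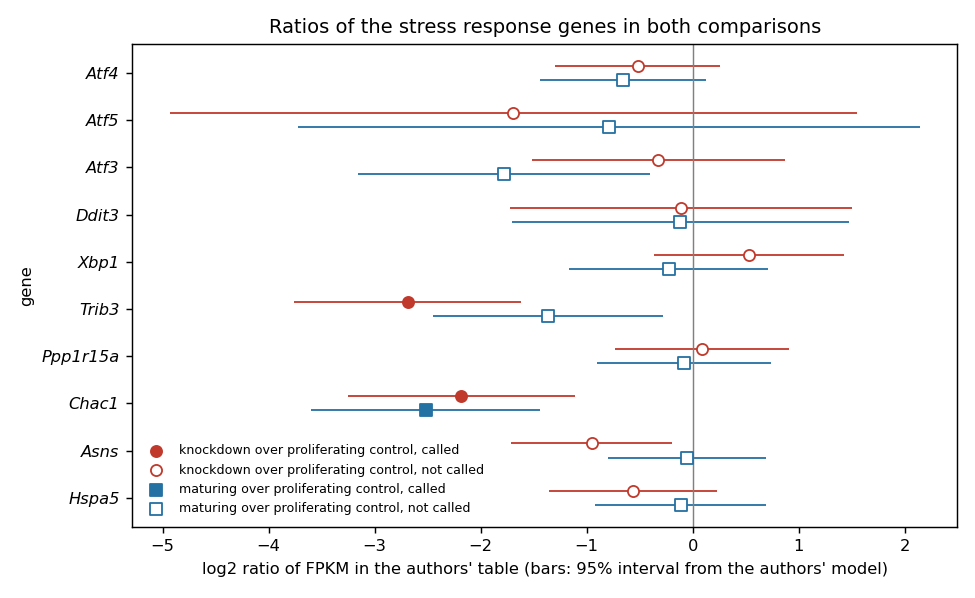
Log2 ratios from the authors' deposited table for the 10 genes, knockdown over proliferating control (red circles) and maturing over proliferating control (blue squares), with filled symbols where the table calls the gene and bars for the 95% interval from the authors' model. The called ratios are Trib3 and Chac1 in the knockdown and Chac1 in maturation, and the bars of Atf5 are the widest.

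Among the transcription factors, Atf4 is the central activator of the integrated stress response. Atf4 (chromosome 15, 80085613 to 80087971, mm9) stood at 64.6 FPKM in proliferating control cells, 45.1 FPKM in knockdown cells and 41.0 FPKM in maturing cells. The proliferating control was thus the high library, and the other two lay close together. Atf4 was called in neither comparison of the authors' deposited table, with log2 ratios of -0.52 (q = 0.865) for the knockdown and -0.66 (q = 0.608) for maturation. The standard error of the authors' model, taken as the log2 ratio over the test statistic, was 0.40 in both.

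Atf5 is a relative of Atf4 whose translation is controlled in a similar way. It was at 6.71, 2.08 and 3.88 FPKM in the proliferating control, the knockdown and the maturing control. Although its knockdown value was 30.9% of the control value, the deposited standard error was 1.65 on the log2 scale, and q was 0.999981 in the authors' deposited table. Its locus in the authors' deposited table (chromosome 7, 52067625 to 52104449, mm9) runs over 36.8 kb and is shared with Il4i1, Nup62, Nup62-il4i1 and Tbc1d17. Nup62, a nuclear pore gene, stood at 26.5, 13.3 and 26.2 FPKM in the same order. Fragments in such overlapping genes can be assigned to either, so the level of Atf5 is uncertain.

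Ddit3 (CHOP) is the Atf4-induced factor associated with cell death under lasting ER stress. Its levels of 16.4, 15.2 and 15.1 FPKM were the most even of the set, with a highest value 1.09 times the lowest. The 95% interval of its log2 ratio in the knockdown, from the authors' standard error, was -1.72 to 1.502, so a change of more than 2-fold either way lies within it. Its locus (chromosome 10, 126727848 to 126748842, mm9) is shared with the methionyl-tRNA synthetase gene Mars, at 15.2, 13.0 and 11.6 FPKM. The same uncertainty in assigning fragments applies.

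Atf3 is a stress-induced factor that in many cell types follows Atf4. It stood at 0.119, 0.0947 and 0.0346 FPKM, which is far below the other genes in all 3 libraries. For maturation the authors' deposited table gave a log2 ratio of -1.78 with an unadjusted p of 0.0111 and a q of 0.124, so it was not called. The number of fragments behind these values is not known.

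Xbp1 encodes the transcription factor of the IRE1 branch. Its levels were 10.3, 14.9 and 8.81 FPKM, highest in the knockdown. For the knockdown the log2 ratio was 0.53 with a standard error of 0.46 and a q of 0.958, and for maturation it was -0.23 with a q of 0.999981, both in the authors' deposited table. Xbp1 was the 1 gene of the set whose knockdown value exceeded the control value by more than 10%, yet the difference was near the size of its error.

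Trib3 and Ppp1r15a are feedback inhibitors: Trib3 is a pseudokinase that restrains Atf4 and Ddit3, and Ppp1r15a (GADD34) directs a phosphatase to eIF2alpha. Trib3 (chromosome 2, 152163160 to 152169796, mm9) stood at 2.53 FPKM in proliferating control cells, 0.393 FPKM in knockdown cells and 0.984 FPKM in maturing cells. All 3 values were apart, with the knockdown lowest. It fell by 2.69 on the log2 scale in the knockdown, with a standard error of 0.55 and a q of 3.23e-05 in the authors' deposited table. That left 15.5% of the control level, with a 95% interval of 0.0739 to 0.326 for the ratio. In the maturing control the log2 ratio was -1.36 with an unadjusted p of 0.0133 and a q of 0.144, so it was not called there. Whether the knockdown and maturation ratios differ was not tested.

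Ppp1r15a stood at a higher level and was called in neither comparison. It was at 15.7, 16.7 and 14.8 FPKM, and its highest value was 1.13 times its lowest. Its log2 ratios in the authors' deposited table were 0.09 and -0.08 for the knockdown and for maturation, each with a standard error of 0.42. The 95% interval for the knockdown, -0.73 to 0.91 from the authors' model, does not reach a change of 2-fold. With 1 library per group it holds no measured spread between cultures, so a larger change is not excluded.

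Chac1 and Asns are enzymes under Atf4: Chac1 breaks down glutathione, and Asns makes asparagine. Chac1 (chromosome 2, 119176977 to 119180062, mm9) stood at 2.07 FPKM in proliferating control cells, 0.457 FPKM in knockdown cells and 0.362 FPKM in maturing cells. The control was the high library and the other two were close to each other. In the authors' deposited table it fell by 2.18 on the log2 scale in the knockdown (standard error 0.55, q = 0.00160) and fell by 2.52 in maturation (standard error 0.55, q = 0.000161). It was the 1 gene of the set called in both comparisons, which share the control library.

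Asns (chromosome 6, 7625170 to 7643182, mm9) had another order of libraries. Its level was 101 FPKM in proliferating control cells, 51.9 FPKM in knockdown cells and 97.1 FPKM in maturing cells. Here the knockdown was the low library, at 51.6% of the control, while the maturing control was at 96.6%. The knockdown ratio had an unadjusted p of 0.0139 and a q of 0.149 in the authors' deposited table, so it was not called, with a log2 ratio of -0.95 and a 95% interval of -1.71 to -0.19 before adjustment.

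Hspa5 (BiP) is the main chaperone of the ER and the usual readout of the unfolded protein response. It was at 68.0, 45.9 and 62.8 FPKM in the proliferating control, the knockdown and the maturing control, lowest in the knockdown. The log2 ratios in the authors' deposited table were -0.57 (standard error 0.40, q = 0.795) and -0.12 (standard error 0.41, q = 0.999981). Neither was called.

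The authors' deposited table also sets the knockdown directly against the maturing control, a pair that differs in both shRNA and medium but leaves out the shared library. This pair was added after the other values had been seen. It held a test for 8 of the 10 genes, and 0 of these 8 were called, against 11.6% of 9241 tested genes called in either direction. Trib3 and Xbp1 had no row for this pair, which covers only part of the genes, so whether they would be called is unknown. Chac1, which had fallen in both libraries against the proliferating control, had a log2 ratio (knockdown over maturing control) of 0.34 with a standard error of 0.54. Atf4 had one of 0.14 with a standard error of 0.40. Asns had -0.90 with an unadjusted p of 0.0199 and a q of 0.197, and Atf3 1.46 with an unadjusted p of 0.0408 and a q of 0.333. For Trib3 and Xbp1 only the levels were compared. Trib3 at 0.393 FPKM in the knockdown had 0.399 times its level in the maturing control, and Xbp1 at 14.9 FPKM had 1.69 times its level.

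Promoter sequence was compared because Trib3 and Chac1 fell together in the knockdown and are known Atf4 targets. RefSeq promoter windows of 300 bases (GRCm38.p6, 250 bases before the annotated start to 50 after it) were found for all 10 genes, with 11 windows in all because Atf5 has 2 annotated starts. The search covered both strands for 5 motifs. The core of the C/EBP-ATF response element (CARE), bound by Atf4 with a partner, was searched as TGATGNAA. The cyclic AMP response element (CRE) was TGACGTCA, and the core of the unfolded protein response element (UPRE) was TGACGTGG. The ER stress response element (ERSE), a CCAAT box and a CCACG block at a fixed distance, and its second type (ERSE-II) were searched in their full consensus. CRE and the UPRE core open with the same letters, and both ERSE types end alike, but no matches in these windows overlapped. The stretches below hold every match in the 10 genes, read 5′ to 3′ on the gene's strand, with the motif in capitals. In Chac1, Atf3 and Trib3 the CARE core lies on the opposite strand and so reads as its reverse complement.
Chac1, CARE core, chr2:119351028-119351077, plus strand: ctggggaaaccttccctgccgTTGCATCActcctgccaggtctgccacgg
Trib3, CARE core, chr2:152344028-152344057, minus strand: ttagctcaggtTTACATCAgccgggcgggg
Asns, CARE core, chr6:7693210-7693253, minus strand: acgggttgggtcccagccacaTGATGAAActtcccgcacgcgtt
Atf3, CARE core, chr1:191183415-191183464, minus strand: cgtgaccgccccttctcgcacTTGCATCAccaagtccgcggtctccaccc
Ppp1r15a, CRE, chr7:45526269-45526301, minus strand: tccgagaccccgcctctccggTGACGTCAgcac
Hspa5, ERSE, chr2:34772004-34772064, plus strand: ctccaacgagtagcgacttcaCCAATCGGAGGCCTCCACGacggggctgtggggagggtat

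The CARE core was thus present in 4 of the 10 genes (Chac1, Trib3, Asns and Atf3), against 4.51% of 27025 genes and 3.97% of their 32851 windows of the same length. Chac1 and Atf3 held the same 8 letters, TGATGCAA on the strand searched, while Trib3 held TGATGTAA and Asns TGATGAAA. The matches began 193 bases before the start in Chac1, 110 in Atf3 and 23 in Asns, and at base 15 after it in Trib3. Both called genes held the motif, and so did Asns and Atf3, which were not called in the knockdown. The single ERSE match was in Hspa5, 65 bases before the start, against 0.137% of genes (0.119% of windows). The CRE was in Ppp1r15a, 12 bases before the start, against 2.03% of genes (1.79% of windows). The UPRE core (0.714% of genes, 0.676% of windows) and ERSE-II (0.0444% and 0.0365%) had no match in the 10 genes, and Atf4, Atf5, Ddit3 and Xbp1 held none of the 5 motifs in these windows. Trib3, Chac1 and Asns were taken beforehand as genes under Atf4, so their CARE share above that of all genes is no finding from these data. Whether the motif bears on the fall of Trib3 and Chac1 was not tested. A match is only a run of letters, and no binding was measured here.

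**Figure D3:**
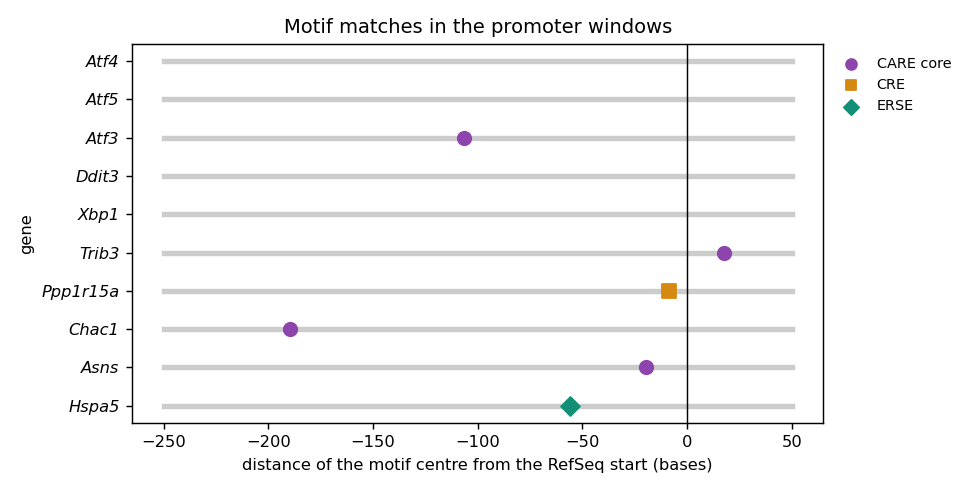
Position of each motif match relative to the RefSeq start (0) in the 300-base window of each of the 10 genes: CARE core (circles), CRE (square) and ERSE (diamond). Matches of the CARE core lie in Atf3, Trib3, Chac1 and Asns, at different distances from the start.

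The other genes of these pathways were taken from 8 lists of 127 different genes, none of them among the 10. All had a row, and 114 reached 1 FPKM in a library. In the knockdown, 4 of 121 tested genes were called lower and 4 higher in the authors' deposited table, beside the 3.24% and 5.81% of all tested genes given above. In maturation, 2 of 120 tested genes were called lower and 0 higher, beside 1.17% and 0.584% of all tested genes. These counts lie near the shares over all genes, and are not read as a result about the pathways.

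The list of stress effectors grouped with Atf4 and Ddit3 has 19 entries. Whether each entry is a target of these factors was not tested, and both counts of falls below include Trib1. Of 16 tested in each comparison, 3 fell in the knockdown (3.24% of all tested genes were called lower) and 2 in maturation (1.17%), and 0 rose in either. Nupr1, a stress-induced nuclear protein, was at 1.79, 0.198 and 1.61 FPKM in the proliferating control, the knockdown and the maturing control, with a knockdown q of 1.29e-05. Trib1, the pseudokinase related to Trib3, was at 0.451, 0.0392 and 0.0403 FPKM and fell in both comparisons (q = 2.71e-07 and 3.38e-07). The death receptor gene Tnfrsf10b was at 0.336, 0.0411 and 0.250 FPKM, with a knockdown q of 2.38e-05. Trib1 and Tnfrsf10b stayed below 1 FPKM everywhere. Ddit4, an inhibitor of mTORC1, was at 17.3, 8.43 and 6.36 FPKM and fell in maturation (q = 0.0399). Over the 12 measured entries (1 FPKM or more in a library) the median log2 ratio of FPKM + 1 was -0.26 in the knockdown and -0.34 in maturation.

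Of 17 tested Atf4 targets of amino acid synthesis and uptake, 1 fell and 1 rose in the knockdown, near the 3.24% and 5.81% of all tested genes. Phgdh, the first enzyme of serine synthesis, was at 11.0, 0.00434 and 5.39 FPKM and fell (q = 3.84e-11). Slc3a2, the shared heavy chain of several amino acid transporters, was at 28.8, 74.2 and 18.4 FPKM and rose (q = 0.0115). Of 16 measured entries 13 had a lower value in the knockdown, with a median of -0.41 (55.6% and -0.05 over all measured genes). In maturation 13 had a lower value, with a median of -0.54 and no call (47.3% and 0.01 over all measured genes). Slc7a5, a light chain that pairs with Slc3a2, was at 55.4, 81.8 and 28.1 FPKM, and the serine synthesis enzyme Psat1 at 54.2, 42.1 and 27.9 FPKM, neither of them called in either comparison. The CARE core was found in 4 of the 14 entries of this list with a promoter window, and none of these 4 was called. It was found in 4 of 13 of the stress effectors, beside 4.51% of all genes. Of these effectors Nupr1 was called in the knockdown, and the others had no test in either comparison. Both lists were chosen as genes grouped with Atf4, so these shares are no finding from these data.

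The cytosolic tRNA synthetases, which load amino acids onto tRNAs and are partly under Atf4, had lower values almost throughout but no call. In the knockdown 20 of 21 list entries were lower, with a median of -0.32, beside 55.6% and -0.05 over all measured genes. In maturation 19 of 21 were lower, with a median of -0.36, beside 47.3% and 0.01. Kars was at 42.0, 35.9 and 39.3 FPKM and Hars at 27.3, 22.1 and 32.4 FPKM. Of the 13 entries with a promoter window, 5 held the CARE core, beside 4.51% of all genes. The list was taken as partly under Atf4, so this share is no finding from these data. The exporter of tRNA from the nucleus, Xpot, is counted in this list.

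The enzymes that set eIF2alpha phosphorylation were not called. The 14 entries of the list of eIF2alpha kinases, eIF2B subunits and phosphatases had 0 calls in both comparisons. Their median was -0.25 in the knockdown. In maturation it was -0.0080 and crossed zero with the libraries centred (highest value 0.0043) and also with a pseudocount of 5. Eif2ak1, the haem-sensing kinase, was at 10.6, 8.29 and 13.6 FPKM and was named after its values were seen. It stood above the other eIF2alpha kinases Eif2ak2, Eif2ak3 and Eif2ak4 in all 3 libraries. The phosphatase subunits Ppp1ca and Ppp1cb were at 99.6, 104 and 95.9 FPKM and at 26.4, 24.5 and 26.7 FPKM.

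Of 44 tested entries in the 3 ER lists, 3 were called higher and 0 lower in the knockdown, near the 5.81% and 3.24% of all tested genes. Creb3l1, an ER-bound transcription factor released by proteolysis, was at 2.99, 39.7 and 2.60 FPKM and rose in the knockdown (q = 4.92e-13). Its relative Creb3l2 was at 0.0149, 0.313 and 0.0192 FPKM and was also called higher (q = 1.52e-07). Edem3, which trims sugars on misfolded proteins, was at 4.64, 15.6 and 3.05 FPKM and rose (q = 0.000638). These q values are those of the authors' deposited table. Tram1, of the ER translocation channel, was at 18.5, 38.3 and 15.4 FPKM and was not called.

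The 19 measured ER chaperones and folding enzymes had no call, with medians of -0.14 in the knockdown and -0.19 in maturation. Calr was at 168, 145 and 143 FPKM and P4hb at 48.9, 59.0 and 40.0 FPKM. The ERSE was found in 6 of 15 chaperone genes with a promoter window, beside 0.137% of all genes. The list was chosen as genes of the unfolded protein response, so this share is no finding from these data. For ER-associated degradation the median was -0.04 in the knockdown, where centring turned it to 0.03, and -0.03 in maturation. Its members Vcp and Derl1 were at 54.9, 55.6 and 54.7 FPKM and at 31.8, 23.4 and 26.0 FPKM. The median of the ER stress sensor list was 0.19 in the knockdown and -0.04 in maturation over 9 measured genes.

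Mitochondrial chaperones and proteases had no call, with a median of -0.41 in the knockdown and -0.01 in maturation over 10 genes. The chaperonins Hspe1 and Hspd1 were at 105, 72.3 and 136 FPKM and at 90.5, 60.0 and 85.0 FPKM.

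**Figure D4:**
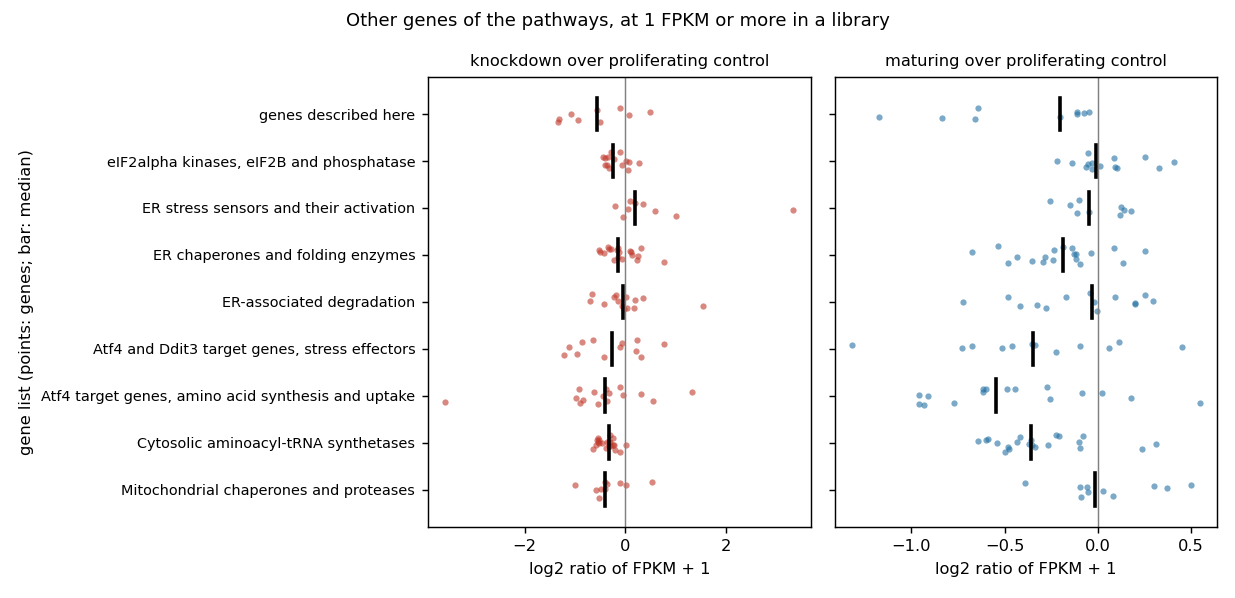
Log2 ratio of FPKM + 1 for each gene at 1 FPKM or more in a library (points) and the median (black bar) in the set described here (9 of its 10 genes) and the 8 pathway lists, with knockdown over proliferating control on the left and maturing over proliferating control on the right, on axes of different range. The lowest point of the knockdown panel is Phgdh and the highest is Creb3l1, and the tRNA synthetases lie almost wholly below zero in both panels.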

How the data were processed

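RNA of cultured mouse erythroblasts was sequenced with commercial kits, per the labels' protocols. Per the submitters' processing notes, Cufflinks 2.0.2, Cuffdiff and FastQC 0.10.1 were used with mm9. Aligner and gene annotation: not given in the sources used here. A single table of 65535 rows was deposited, with 3 pairwise comparisons, of which the third covers 19067 of the 23234 genes. Its values per library were read as FPKM made by the authors with Cuffdiff. Per the file headers, each row also holds the authors' log2 ratio, a test score, a p-value and an adjusted q-value. Libraries were matched to samples by title; the knockdown by its target and the number in its title. The deposited log2 ratio matched the FPKM ratio within 0.000109, and the p-value matched the normal tail of the score within 0.001 in all 31873 tested rows with a finite ratio. Standard errors are therefore the log2 ratio over the score, and 95% intervals follow from the normal distribution.

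No test was made beyond the authors' own, and the absolute depth is unknown. Sizes across lists are log2 ratios of FPKM + 1, which understate the change of low genes. Alternatives were pseudocounts of 0.1 and 5, 4 other scalings, filters at 1 and 5 FPKM, a q under 0.01 and the mean. The rule for naming took all 10 genes, up to 4 called genes per list and comparison, and the 2 with the highest mean FPKM in a list without a call. Eif2ak1 to Eif2ak4 and Xpot fall outside it. The genes and lists were chosen with earlier results of these data known. The ratio calculation was tested on simulated shifts in genes at 5 FPKM or more, and the standard error formula on made-up values. Calls, motif matches and low genes were not simulated. Python 3.11.15, numpy 2.4.6, pandas 2.3.3, scipy 1.17.1 and matplotlib 3.10.9 were used.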

Additional observations from a re-analysis of the deposited data

How the results depend on the processing

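No paired analysis was possible because each group had 1 library, and no replicate could be left out. Over 6 alternatives for each of the 20 ratios of the 10 genes (knockdown and maturation), no ratio changed sign. A pseudocount cannot change a sign, and the scalings moved a library by at most 0.093 on the log2 scale. The unchanged signs are therefore no check of direction. The called ratios changed in size with the pseudocount, since Trib3 and Chac1 are low. In the knockdown the log2 ratio of Trib3 was -2.42 with a pseudocount of 0.1, -0.48 with one of 5 and -1.34 with one of 1, and that of Chac1 ranged from -1.97 to -0.37. In maturation Chac1 ranged from -2.23 to -0.40. With only genes at 5 FPKM or more in a library, 0 of the 10 genes were called in the knockdown and 0 in maturation, because Trib3 and Chac1 leave the set. In the knockdown 3 genes (Atf5, Trib3 and Chac1) passed 2-fold, 0 with a pseudocount of 5 and 1 among genes at 5 FPKM or more. In maturation 1 gene passed, 2 with a pseudocount of 0.1, 2 on the TPM scale, 0 with a pseudocount of 5 and 0 among genes at 5 FPKM or more. The median, over the 10 genes or those left by the filters at 1 and 5 FPKM, ranged from -0.56 to -0.42 in the knockdown. In maturation it ranged from -0.44 to -0.11. A q under 0.01 left the counts of 2 and 1 calls as they were.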
